A study of Mus musculus with 4 samples.

Results

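The CCR4 and CCR8 chemokine axes were described here by 5 genes, 3 ligands and 2 receptors, among the 32285 genes counted in each cell. The members were listed by name: Ccl17 and Ccl22, the ligands of CCR4, then Ccr4 itself, then Ccl1, a ligand of CCR8, and Ccr8. Chemokines are small secreted proteins that draw cells carrying the matching receptor. CCL17 and CCL22 are known as products of activated and migratory dendritic cells, and Ccl17 as a gene that GM-CSF and IL-4 induce in myeloid cells. CCL1 is made by activated T cells. CCR4 marks regulatory T cells, type 2 helper T cells and other memory T cells that enter tissue, and CCR8 is best known from regulatory T cells inside tumours and from type 2 helper T cells.

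The cells were live CD45+ leukocytes sorted from subcutaneous tumours of the KPC line, a mouse pancreatic cancer line, grown in syngeneic male C57BL/6NHsd mice aged 8 to 10 weeks. All 4 groups carried the tumour: untreated mice, mice given 1 intratumoral dose of 2 µg of the STING agonist ADU-S100, mice given 4 intraperitoneal doses of the agonistic anti-LTβR antibody 4H8 until day 10, and mice given both. Tumours were collected on day 14, and the study pooled 10 tumours per group for sorting. Each group was 1 library of 5′ single-cell RNA sequencing, so the mice of a group cannot be told apart, differences between conditions were not tested, and no p-value is given.

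The 4 libraries held 24839 barcodes, of which 23011 (92.6%) passed the quality filter, 3748 to 7147 per library. Library depth ran from 32529174 to 60770280 unique molecular identifiers (UMIs), and the STING agonist library was the smallest. Levels are given as CPM, the UMIs of a gene per 1000000 UMIs of all genes over the cells of a class in 1 library. Ratios of CPM and shares of cells carry exact 95% intervals that cover counting error only, not the spread between tumours. For ratios of CPM each UMI was taken as independent. Those intervals therefore do not cover the spread between the cells of a library either, and are too narrow where few cells hold most UMIs. Where 4 values stand in a row, they are those of untreated tumours, then of the STING agonist, of the LTβR agonist and of the combination, and 3 ratios in a row set the treated libraries, in that order, against untreated. Cell classes were rebuilt from clusters made without the 5 members and named by marker lists, with thresholds for a name set after the clusters were seen. Regulatory-like T cells carried Foxp3 in 72.4, 78.1, 72.0 and 78.2% of cells. The migratory dendritic markers Ccr7 and Fscn1 were detected in at least 89.3% and 72.9% of the mature-DC-like cells of every library. Among the kept cells, 492 (2.14%) carried a barcode sequence found in more than 1 library.

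Ccl22 and Ccl17 lie side by side on chromosome 8 (GRCm38, GENCODE vM21), 58.8 kb apart with Cx3cl1 as the single protein-coding gene between them. The bases just upstream of both genes are shown because the 2 ligands, although neighbours, had different levels across the 4 libraries. Ccl22 (ENSMUSG00000031779) is annotated at chr8:94745590-94751699 on the plus strand, and Ccl17 (ENSMUSG00000031780) at chr8:94810453-94812036 on the same strand. The stretches below are from the RefSeq promoter table for GRCm38.p6, restricted to bases outside the annotated gene, chr8:94745434-94745589 for Ccl22 and chr8:94810203-94810452 for Ccl17, both on the plus strand. Capitals mark matches, searched on both strands, to TTCNNNNGAA or TTCNNNGAA, the spaced palindromes that STAT factors bind, and to GGGNNNNNCC, a loose form of the NF-κB site.
Ccl17: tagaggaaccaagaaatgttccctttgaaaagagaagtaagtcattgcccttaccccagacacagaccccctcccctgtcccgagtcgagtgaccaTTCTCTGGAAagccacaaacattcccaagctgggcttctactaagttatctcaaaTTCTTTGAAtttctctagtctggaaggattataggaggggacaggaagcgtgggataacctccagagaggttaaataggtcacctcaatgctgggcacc
Ccl22: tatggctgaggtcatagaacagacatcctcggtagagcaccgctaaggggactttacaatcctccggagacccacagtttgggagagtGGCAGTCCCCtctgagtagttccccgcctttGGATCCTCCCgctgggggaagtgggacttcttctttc
The Ccl17 stretch held 1 match of TTCNNNNGAA and 1 of TTCNNNGAA, at 154 and 99 bases before the RefSeq start, motifs found in 5.85% and 7.02% of 32851 mouse windows of 250 bases. The Ccl22 stretch held 2 matches of GGGNNNNNCC on the minus strand, at 162 and 131 bases before the RefSeq start. The last 94 bases of the Ccl22 window, next to that start, lie inside the annotated gene and are not shown. GGGNNNNNCC was found in 45.8% of windows. The stricter GGGNNTTTCC, found in 1.41% of windows, was in neither. These matches describe letters only. The other members lie elsewhere: Ccl1 (ENSMUSG00000020702) at chr11:82176657-82305690 on the minus strand, Ccr4 (ENSMUSG00000047898) at chr9:114490316-114504916 on the minus strand and Ccr8 (ENSMUSG00000042262) at chr9:120092114-120094906 on the plus strand.

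Of the Ccl22 UMIs, 79.6, 74.2, 84.2 and 69.8% were in mature-DC-like cells, although these cells numbered only 166, 60, 122 and 61. Ccl17 lay elsewhere in the libraries that had received the LTβR agonist. Mature-DC-like cells held 51.0 and 52.6% of the Ccl17 UMIs in the untreated and STING agonist libraries but 21.6 and 23.1% in the LTβR agonist and combination libraries. The remaining dendritic-like cells, called other dendritic-like here, held 37.0, 10.1, 59.2 and 54.6% in the same order. Macrophage- or monocyte-like cells held 8.32, 36.4, 13.6 and 14.6%, and in the STING agonist library 1 such cell carried 43 of their 90 UMIs. Ccr8 UMIs were spread over the T-like cells: 16.4, 15.7, 30.3 and 14.3% were in regulatory-like cells, and CD8 T cells held 34.4, 29.9, 21.3 and 30.7%. An unnamed cluster with T cell and myeloid genes, led by Areg and Foxp3, held a further 10.6, 9.87, 11.0 and 3.17%. Ccr4 UMIs lay mainly in T-like cells. CD4 helper cells, that is, T-like cells with Cd4 and without Foxp3, Cd8a or Cd8b1, held 31.2, 47.7, 39.0 and 34.2%. Regulatory-like cells held 31.2, 14.1, 24.5 and 18.5%. T-like cells outside these classes and the CD8 T cells held up to a further 40.4% of Ccr4, in the combination library. Ccl1 UMIs were 46.8, 17.5, 47.1 and 15.1% in CD4 helper cells and 29.1, 72.0, 36.7 and 20.5% in CD8 T cells. In the combination library T-like cells outside these classes held 44.1%, that is 445 UMIs in 14 cells, and 1 of these cells carried 232.

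**Figure D1:**
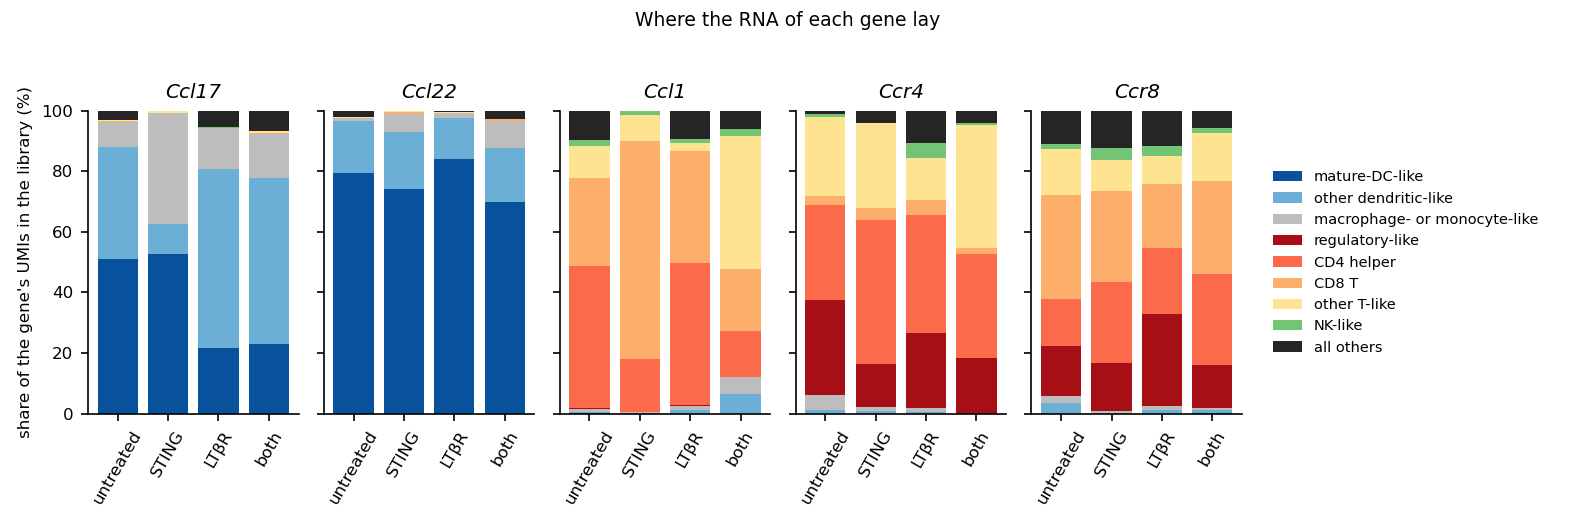
Share of each member's UMIs (percent, vertical axis) found in each cell class, one stacked bar per library and one panel per gene. Ccl22 stays mostly in mature-DC-like cells (69.8 to 84.2%), whereas for Ccl17 that class holds 51.0 and 52.6% in the untreated and STING agonist bars and 21.6 and 23.1% in the other 2.

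Ccl17 was the member with the widest range between libraries. Over all kept cells it had 457, 247, 1918 and 1856 UMIs, or 8.48, 8.30, 38.1 and 48.4 CPM. Both libraries with the LTβR agonist were high and the other 2 were alike. Set against untreated, these levels were 0.979 (0.836 to 1.15), 4.50 (4.06 to 4.99) and 5.71 (5.15 to 6.34) times as high. Over the same cells Ccl22 had 37.7, 18.5, 23.6 and 16.5 CPM, highest in the untreated library. Dendritic-like cells were 9.48, 5.47, 6.09 and 4.46% of the kept cells.

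In mature-DC-like cells Ccl17 had 233, 130, 415 and 429 UMIs, or 147, 221, 384 and 672 CPM. All 3 treated libraries lay above the untreated one, and the combination lay highest. The ratios of CPM were 1.498 (1.20 to 1.86), 2.61 (2.21 to 3.07) and 4.56 (3.88 to 5.37). The combination was 3.04-fold (2.50 to 3.73) above the STING agonist library and 1.75-fold (1.53 to 2.01) above the LTβR agonist library. Cells with at least 1 Ccl17 UMI were 41 of 166 (24.7%), 20 of 60 (33.3%), 52 of 122 (42.6%) and 30 of 61 (49.2%). Thinning every cell to 1000 UMIs gave the same order of shares, 7.27, 15.3, 21.4 and 29.5%. One cell carried 12.5 to 24.6% of the UMIs in each library, and without that cell the ratios were 1.31, 2.49 and 4.01. A finer clustering, with 104, 38, 78 and 39 mature-DC-like cells, kept all 3 above untreated at 1.915, 3.706 and 1.875, so there the combination was not the highest. At that resolution 94 cells led by Fabp5 and H2-Eb2 and 38 led by Il12b and Spock1 stayed unnamed, outside the class. Their part in the changed order was not tested. Marker gates over all barcodes gave 3.17 and 2.46 with the LTβR agonist and the combination. Summed markers of other cells were, like Ccl17, highest in the combination library in this class, but below untreated with the STING agonist, where Ccl17 was above it. The 9 macrophage or monocyte markers summed to 64.5, 52.6, 112 and 163 CPM, with 0, 2, 2 and 0 of them at 0, and the 5 T cell markers to 9.49, 1.70, 7.4 and 15.7 CPM, with 0, 4, 1 and 1 at 0. Their part in the Ccl17 levels was not tested.

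Other dendritic-like cells showed the wider contrast. Their Ccl17 UMIs were 169, 25, 1135 and 1013 in 477, 145, 313 and 177 cells, or 28.6, 13.1, 309 and 451 CPM. The untreated and STING agonist libraries were low and both libraries with the LTβR agonist were high. Against untreated the ratio was 0.457 (0.287 to 0.698), 10.8 (9.20 to 12.8) and 15.8 (13.4 to 18.7), and the combination was 1.46-fold (1.34 to 1.59) above the LTβR agonist alone. Cells with a Ccl17 UMI made up 7.76, 7.59, 28.8 and 42.9% of the class, and 2.73, 1.38, 11.3 and 19.9% after thinning. T-like cells, which serve as the background level for droplet RNA, held a Ccl17 UMI in 0.156, 0.147, 0.0470 and 0.434% of cells at a median of 4251 to 5055 UMIs, against 11220 to 13400 in other dendritic-like cells. Left without its top cell in each library, the class gave ratios of 0.370, 12.7 and 18.6. Clustering at a finer resolution kept the directions with ratios nearer to 1, at 0.798, 4.56 and 9.17, and thinned cells gave 5.96 and 9.96 for the last 2.

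**Figure D2:**
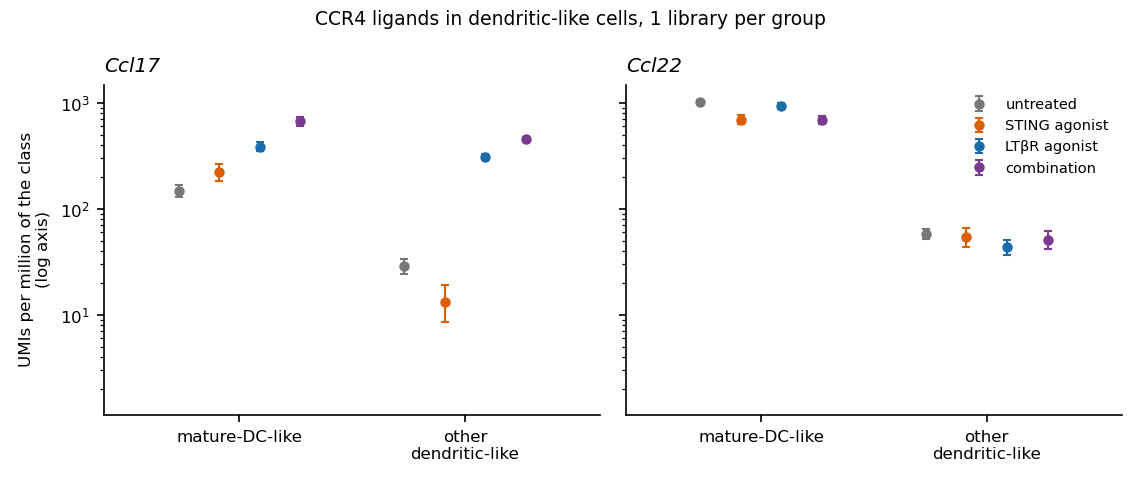
Level of Ccl17 and Ccl22 (CPM, log axis) in mature-DC-like and other dendritic-like cells of the 4 libraries; points are 1 library each and bars are exact 95% counting intervals. Ccl17 in other dendritic-like cells sits at 28.6 and 13.1 CPM without and 309 and 451 CPM with the LTβR agonist, whereas Ccl22 keeps to 43.3 to 58.0 CPM there.

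Most dendritic-like sub-clusters shared this direction. Of the 10 sub-clusters, Ccl17 was higher than in untreated in 8 with the LTβR agonist (1 lower, 1 with no UMI in either library) and in 9 with the combination (1 with none in either), but in 4 with the STING agonist (4 lower, 2 with none in either). The largest contrast lay in a sub-cluster led by the complement genes C1qb and C1qa, with 57, 15, 36 and 37 cells, where Ccl17 had 16.8, 26.2, 992 and 979 CPM. This was 59.0-fold (34.8 to 109) above untreated with the LTβR agonist and 58.3-fold (34.4 to 107) with the combination. A sub-cluster led by Cdh17 and Itgae had 52.3, 9.53, 505 and 518 CPM. In cDC2-like cells, the conventional dendritic cells that present antigen mainly to CD4 T cells, Ccl17 had 73.5, 24.3, 139 and 268 CPM. This class joined 2 sub-clusters whose shares of it differed between libraries. One, led by Cxcl10 and interferon-induced Ifit genes, had 108, 46, 57 and 26 cells and 77.1, 29.1, 207 and 341 CPM, and the other, led by Cd209a and Pid1, had 36, 13, 44 and 43 cells and 60.9, 0, 43.5 and 215 CPM. No Ccl17 UMI was found in cDC1-like cells of the untreated library (0 of 54, which allows a share of up to 5.56%) or the STING agonist library (0 of 18, up to 16.7%), and the other 2 libraries had 44.7 and 38.9 CPM. Within the mature class the 2 sub-clusters differed in order: the one led by Fscn1 had 92.8, 124, 378 and 211 CPM, and the one led by Fabp5 and Il1rn had 281, 359, 404 and 1343 CPM. The combination was thus 3.33-fold (2.65 to 4.20) above the LTβR agonist alone in the Fabp5 sub-cluster and 0.559-fold (0.432 to 0.716) of it in the Fscn1 sub-cluster. That difference between the sub-clusters was not tested.

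**Figure D3:**
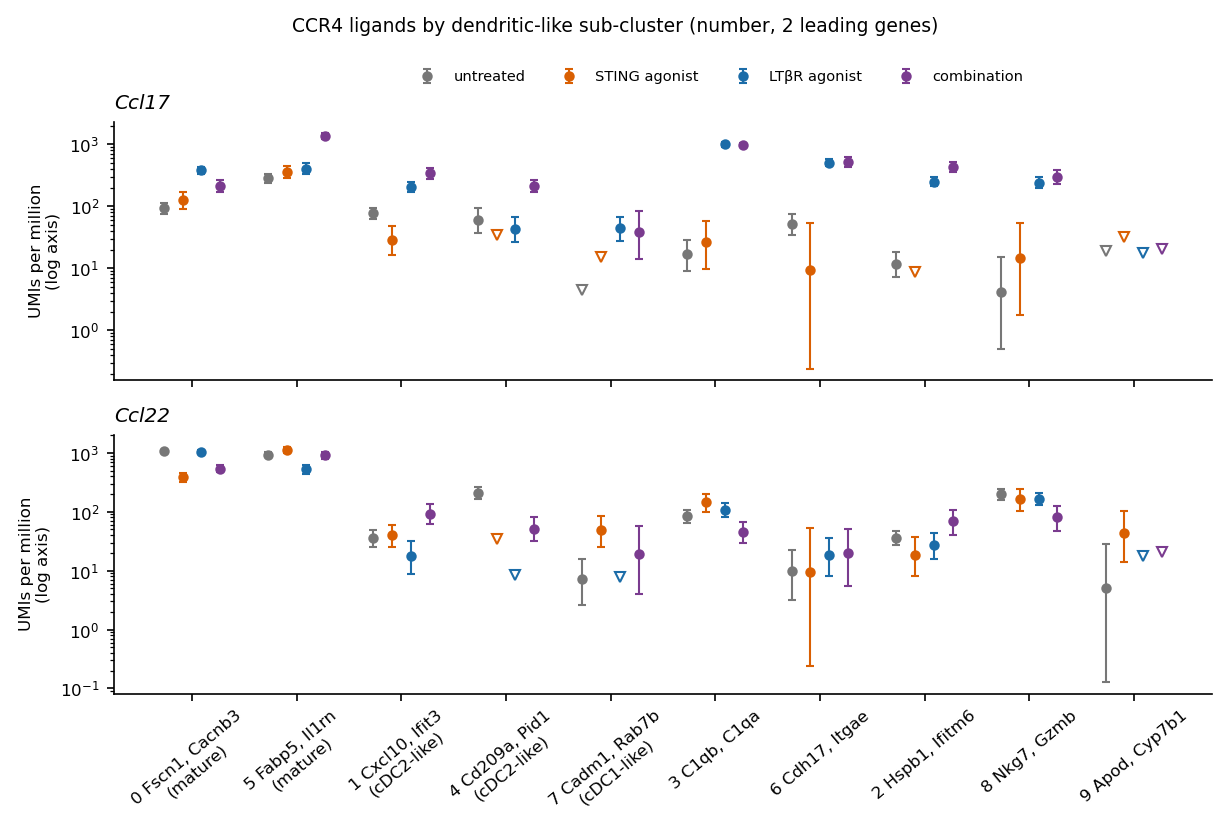
Level of Ccl17 and Ccl22 (CPM, log axis) in each of the 10 dendritic-like sub-clusters, 1 point per library with exact 95% counting intervals; open triangles give the upper bound where no UMI was found. In the C1qb sub-cluster the LTβR agonist and combination points for Ccl17 lie at 992 and 979 CPM against 16.8 CPM in untreated.

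Other dendritic-like cells with Ccl17 differed from those without in the genes detected beside it. Of 214 such cells with a Ccl17 UMI, 71.0% also had Mgl2, a lectin of cDC2 and of IL-4-exposed macrophages, against 33.9% of the 898 cells without. The share with Mgl2 was 56.8, 77.8 and 78.9% in the untreated, LTβR agonist and combination libraries and 9.09% of the 11 cells in the STING agonist library. These pooled shares mix libraries, since 166 of the 214 cells came from the 2 libraries with the LTβR agonist. Within libraries C1qa was found in 10.8, 18.2, 10.0 and 28.9% of cells with Ccl17 against 7.96, 7.46, 4.93 and 11.9% of those without. Irf4 was found in 35.1, 54.5, 35.6 and 36.8% against 24.1, 25.4, 28.7 and 29.7%. The cDC1 gene Clec9a was less frequent beside Ccl17, with 13.5, 27.3, 12.2 and 19.7% against 27.1, 29.1, 23.3 and 22.8%. Cd209a differed between libraries, with 27.0, 36.4, 13.3 and 15.8% against 21.1, 29.1, 37.2 and 30.7%. Cells with Ccl17 were deeper, at a median of 14120 against 11620 UMIs, and the part of depth in these shares was not tested. Macrophage marker RNA was present in the class: the 9 macrophage or monocyte markers summed to 811, 1000, 773 and 1288 CPM, with C1qa in 8.18, 8.28, 6.39 and 19.2% of cells. The 5 T cell markers summed to 99.6, 85.6, 134 and 127 CPM in the same cells. The T cell sum, like Ccl17, was lowest in the STING agonist library and higher in both libraries with the LTβR agonist. Without the sub-cluster that carried T cell genes, the Ccl17 ratios were 0.42, 10.3 and 15.2. The part of macrophage RNA in the Ccl17 levels was not tested. Macrophage- or monocyte-like cells themselves had 1.34, 5.75, 10.4 and 17.9 CPM of Ccl17, with a UMI in 0.418, 0.734, 1.51 and 3.37% of cells. Those led by C1qb and C1qa held most of these UMIs in the first 3 libraries, at 3.22, 11.9, 37.1 and 42.0 CPM, with 43 of the 64 STING agonist UMIs in 1 cell. No neutrophil-like or plasmacytoid-DC-like cell held a Ccl17 UMI in any library.

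Ccl22, by contrast, was highest in untreated mature-DC-like cells. It had 1615, 409, 1001 and 441 UMIs there, or 1021, 695, 926 and 691 CPM. The STING agonist and combination libraries were low and close to each other, and the LTβR agonist library lay near untreated. This gave ratios of 0.680 (0.609 to 0.758), 0.907 (0.837 to 0.982) and 0.676 (0.607 to 0.752). The LTβR agonist ratio changed direction with how the class was drawn, to 1.28 at a finer clustering and 1.15 with cells gated one by one on markers. Shares of cells with a Ccl22 UMI were 82.5, 75.0, 78.7 and 75.4%. In other dendritic-like cells Ccl22 had 343, 103, 159 and 114 UMIs, or 58.0, 53.8, 43.3 and 50.8 CPM, a narrow band beside the range of Ccl17 in the same cells. Its ratios there were 0.927 (0.736 to 1.16), 0.747 (0.615 to 0.904) and 0.875 (0.702 to 1.09), and thinned cells gave 0.424 for the STING agonist. T-like cells held a Ccl22 UMI in 0.188 to 0.364% of cells.

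The 2 mature sub-clusters also split for Ccl22. The one led by Fscn1 had 1057, 384, 1043 and 539 CPM, low in both libraries with the STING agonist. The one led by Fabp5 and Il1rn had 935, 1139, 526 and 912 CPM, low in the LTβR agonist library alone. Over all 10 sub-clusters Ccl22 was above untreated in 5, 2 and 4 and below it in 5, 8 and 6 for the 3 treatments.

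Both CCR4 ligands were often detected in the same mature cells. Of the mature-DC-like cells with Ccl17, 41 of 41, 19 of 20, 45 of 52 and 26 of 30 also had Ccl22. Read from Ccl22, 29.9, 42.2, 46.9 and 56.5% of its cells had Ccl17, lowest in the untreated library. Cells with Ccl17 and no Ccl22 were 0 of 29, 1 of 15, 7 of 26 and 4 of 15 of the mature cells without Ccl22. Among other dendritic-like cells without Ccl22, Ccl17 was found in 5.12, 3.97, 24.6 and 33.1%, higher in both libraries with the LTβR agonist.

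The share of ligands past 1.5-fold was read beside all genes with at least 50 UMIs over the compared libraries. In mature-DC-like cells, 13.5% of 5003, 14.4% of 5594 and 19.7% of 5034 genes lay past 1.5-fold in either direction. Of the members, 0 of 2, 1 of 2 and 1 of 2 did, Ccl17 in each case. In other dendritic-like cells the background was 11.2% of 8761, 7.38% of 9215 and 11.8% of 8870 genes. There 1 of 2 members lay past it with the STING agonist (Ccl17, lower), 1 of 2 with the LTβR agonist (Ccl17, higher) and 2 of 3 with the combination. The second was Ccl1, whose count rested on 1 cell with 66 UMIs. The median ratio over all genes was 0.974 to 1.03 across these 6 comparisons.

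Lists of related genes in the same cells gave other directions. Of 16 mature dendritic cell genes, all counted in mature-DC-like cells, none lay above 1.5-fold and 1, 4 and 4 lay below, with medians of 0.928, 0.764 and 0.861. The list included the markers that named this class, such as Ccr7, Fscn1 and Relb, so it was not independent of the class. Il12b, a subunit of IL-12 and IL-23, had 566, 250, 328 and 453 CPM, and Cd274, which encodes PD-L1, had 1278, 1194, 841 and 642 CPM. The list of GM-CSF and IL-4 input (cytokines, receptors and STAT and IRF factors) had 8 genes counted in other dendritic-like cells, of which 0, 1 and 1 lay above 1.5-fold and none below, with medians of 1.12, 1.01 and 1.03. That gene was Irf4, a factor of cDC2 development, at 34.3, 43.3, 64.3 and 60.1 CPM, 1.87-fold (1.55 to 2.27) and 1.75-fold (1.40 to 2.19) above untreated with the LTβR agonist and the combination. Among 7 counted other CC ligands in these cells, 0, 0 and 1 lay above and 3, 3 and 2 below 1.5-fold, with medians of 1.04, 0.870 and 0.776. Ccl5 had 816, 242, 389 and 604 CPM, an order unlike that of Ccl17.

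Ccl1, a ligand of CCR8, was found in few T-like cells that each held much of it. T-like cells had 630, 455, 747 and 804 Ccl1 UMIs, or 58.8, 57.3, 67.4 and 64.1 CPM, and 58 of 1925, 49 of 1359, 87 of 2127 and 105 of 2074 cells (3.01, 3.61, 4.09 and 5.06%) carried any. The 4 levels were close when UMIs were summed over the class, with ratios of 0.974 (0.861 to 1.10), 1.15 (1.03 to 1.28) and 1.09 (0.981 to 1.21). Averaging CPM over cells or thinning gave higher ratios for every treated library, as did leaving out top cells for either agonist alone. The finer clustering gave a lower one for the combination. The single cell with most Ccl1 held 209, 93, 146 and 232 UMIs, which was 33.2, 20.4, 19.5 and 28.9% of all, and the top 10 cells held 83.3, 74.3, 74.7 and 74.5%. Cells of 1 library are not replicates of a condition, so these ratios compare small numbers of cells.

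**Figure D4:**
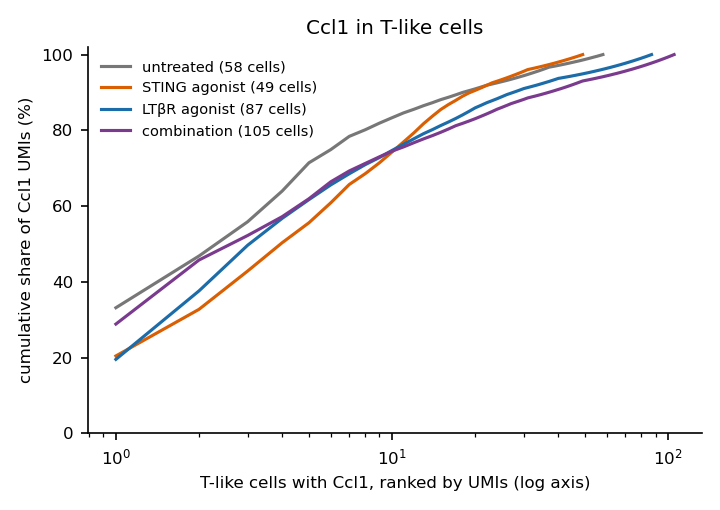
Cumulative share of the Ccl1 UMIs of T-like cells (percent) against the rank of the cell by its Ccl1 UMIs, 1 line per library. The first cell holds 19.5 to 33.2% and the first 10 cells hold 74.3 to 83.3% in every library.

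CD4 helper cells and CD8 T cells differed in the order of Ccl1. In CD4 helper cells it had 339, 81, 405 and 152 UMIs in 13, 12, 22 and 22 cells, or 329, 65.7, 251 and 87.6 CPM, low in both libraries with the STING agonist. Its ratios were 0.1995 (0.155 to 0.255), 0.762 (0.658 to 0.883) and 0.266 (0.218 to 0.323). Without the top cell of each library they were 0.300 (0.210 to 0.422), 1.26 (1.02 to 1.57) and 0.507 (0.390 to 0.657), so the LTβR agonist direction turned. CD8 T cells had 211, 334, 316 and 207 UMIs, or 31.5, 75.0, 59.8 and 28.8 CPM, high with either agonist alone. Their ratios were 2.38 (2.00 to 2.84), 1.90 (1.59 to 2.27) and 0.915 (0.751 to 1.11), and 2.36, 1.49 and 0.938 without the top cells. Shares of cells with Ccl1 were 5.53, 4.56, 6.30 and 7.41% of CD4 helper cells and 3.49, 5.71, 6.64 and 6.83% of CD8 T cells.

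The T-like sub-cluster led by Penk, Csf2, Tnfsf11 and Cd4 held a Ccl1 UMI in 14 of 76, 14 of 107, 26 of 103 and 13 of 112 cells (18.4, 13.1, 25.2 and 11.6%). Its Ccl1 level was 722, 213, 765 and 565 CPM, but 1 cell held 67.6% of the untreated and 69.9% of the combination UMIs. Without the top cell of each library the ratios were 0.641, 1.99 and 0.721. In type-2-like cells Ccl1 was seen in 2 of 22, 0 of 10, 5 of 56 and 13 of 91 cells at 932, 0, 99.3 and 387 CPM, and 1 cell held 98.9% of the untreated UMIs. Regulatory-like cells had almost none, at 3.04, 0, 1.49 and 0 CPM. NK-like cells, another lymphocyte class, had 4.83, 3.17, 3.47 and 10.5 CPM.

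Cells with Ccl1 often had its receptor too. Among 299 T-like cells with a Ccl1 UMI, 43.1% also held Ccr8, against 18.1% of the 7186 cells without. By library the shares were 44.8, 55.1, 32.2 and 45.7% against 16.9, 19.1, 17.8 and 19.0%. Ccl1 cells more often held Csf2 (11.0 against 1.92%), Il13 (7.36 against 1.24%) and Tnfrsf4 (62.9 against 34.5%), and less often Foxp3 (0.669 against 8.92%), with the same direction within each library. Ccr4 was found in 3.34 against 4.72%. The cells with Ccl1 had a median of 6730 UMIs and the others 4564, so depth moved with these shares and its part was not tested.

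Ccr4 was a sparse gene in T-like cells. It had 88, 120, 165 and 139 UMIs in 61, 80, 109 and 99 cells, or 8.22, 15.1, 14.9 and 11.1 CPM. Each treated library lay above the untreated one, by 1.84 (1.39 to 2.45), 1.81 (1.39 to 2.38) and 1.35 (1.03 to 1.78). Regulatory-like cells did not show that order. Their Ccr4 UMIs were 30, 18, 49 and 27, or 45.6, 45.2, 36.4 and 32.3 CPM, and every ratio had an interval that included 1: 0.991 (0.520 to 1.84), 0.799 (0.497 to 1.30) and 0.709 (0.406 to 1.23). Shares with a Ccr4 UMI were 9.82, 12.5, 10.4 and 15.2%, an order unlike that of the CPM, so neither is read as a direction. With 18 to 49 UMIs per library, differences smaller than these intervals could not be seen at this depth, and thinned cells gave 1.91 for the STING agonist.

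CD4 helper cells had 30, 61, 78 and 50 Ccr4 UMIs, or 29.2, 49.5, 48.3 and 28.8 CPM. Either agonist alone was above untreated, 1.70-fold (1.08 to 2.72) and 1.66-fold (1.08 to 2.62), and the combination was at 0.988 (0.616 to 1.61). The make-up of the class moved too: 21 of 235, 50 of 263, 83 of 349 and 22 of 297 CD4 helper cells were Th17-like, a share high with either agonist alone. Left without them, CD4 helper cells had 18.0, 28.0, 26.9 and 21.1 CPM of Ccr4 and ratios of 1.56 (0.822 to 3.03), 1.49 (0.807 to 2.86) and 1.17 (0.635 to 2.23), all with intervals that include 1. The highest Ccr4 levels of all classes were in Th17-like cells, with 141, 126, 109 and 122 CPM and a UMI in 14 of 34, 27 of 76, 32 of 120 and 12 of 39 cells (41.2, 35.5, 26.7 and 30.8%). Type-2-like cells had 32.1, 62.5, 35.8 and 23.9 CPM from 2 to 14 UMIs per library. A sub-cluster led by the γδ T cell genes Cd163l1, Il17a and Trdc had 35.7, 43.3, 19.4 and 39.7 CPM. CD8 T cells were near 0, at 0.448, 1.12, 1.89 and 0.418 CPM, with a UMI in 0.211 to 0.752% of cells, beside at most 0.161% of macrophage- or monocyte-like cells. Among these classes and sub-clusters Th17-like cells came first in every library, and no order was read among the others.

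Ccr8, the receptor of CCL1, was found in more T-like cells than Ccr4 and in more of their classes. T-like cells had 707, 622, 760 and 972 Ccr8 UMIs, or 66.0, 78.3, 68.6 and 77.5 CPM, with a UMI in 17.7, 20.4, 18.4 and 20.3% of cells. In regulatory-like cells the UMIs were 142, 118, 279 and 153, or 216, 296, 207 and 183 CPM. The STING agonist library was highest, 1.37-fold (1.07 to 1.77) above untreated, and the combination lowest, at 0.849 (0.671 to 1.08) of untreated and 0.619 (0.483 to 0.793) of the STING agonist library. With the LTβR agonist the ratio was 0.961 (0.783 to 1.19). After thinning to 1000 UMIs, which leaves few Ccr8 UMIs, the STING agonist ratio was 1.85 and the LTβR agonist ratio 1.43. Shares of regulatory-like cells with Ccr8 were 53 of 163, 32 of 96, 118 of 336 and 67 of 165 (32.5, 33.3, 35.1 and 40.6%), which did not follow the CPM. Regulatory-like cells were 2.40, 2.56, 4.70 and 3.09% of the kept cells, so the LTβR agonist library held the largest share of Ccr8 UMIs in that class, 30.3%.

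CD4 helper cells had 135, 202, 200 and 322 Ccr8 UMIs, or 131, 164, 124 and 186 CPM, and here the combination was highest. Ratios were 1.25 (1.00 to 1.57), 0.945 (0.756 to 1.18) and 1.41 (1.15 to 1.74), and shares of cells were 26.0, 30.8, 27.2 and 36.0%. Type-2-like cells made up 11, 5, 26 and 55 of these CD4 helper cells. Without them Ccr8 had 120.1, 165.5, 122 and 154 CPM, so the combination was no longer highest, and ratios of 1.38 (1.09 to 1.75), 1.02 (0.801 to 1.29) and 1.28 (1.02 to 1.62). The Penk, Csf2 and Tnfsf11 sub-cluster had 250, 285, 250 and 328 CPM and a Ccr8 UMI in 59.2, 56.1, 50.5 and 62.5% of cells. Foxp3 was detected in at most 0.971% of its cells, so Ccr8 at these levels was not limited to regulatory-like cells. Type-2-like cells had 26, 1, 27 and 170 UMIs in 9 of 22, 1 of 10, 14 of 56 and 44 of 91 cells, or 279, 31.2, 107 and 290 CPM. Both the LTβR agonist library, at 0.385 (0.216 to 0.687) of untreated, and the STING agonist library, with 1 UMI and a ratio of 0.112 (0.00273 to 0.682), were low there. Th17-like cells had 105, 32.2, 78.0 and 78.0 CPM, and 10 of the 15 untreated UMIs came from 1 cell.

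CD8 T cells had 44.5, 50.3, 37.1 and 45.8 CPM of Ccr8, with a UMI in 17.4, 21.6, 15.4 and 18.2% of cells. Macrophage- or monocyte-like cells, which should lack the gene, had a UMI in 0.301 to 0.386% of cells at a median of 7498 to 10380 UMIs, against 5784 to 6876 in CD8 T cells. NK-like cells had 5.23, 19.0, 8.39 and 9.46 CPM, highest in the STING agonist library at 3.63-fold (1.84 to 7.58) of untreated.

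Ccr4 was found in like shares of regulatory-like cells with and without Ccr8. Of 270 such cells with Ccr8, 11.5% (7.94 to 15.9) had Ccr4, and of the 490 without Ccr8, 11.6% did. In the combination library the shares were 22.4% (13.1 to 34.2) and 10.2%, and in the LTβR agonist library 5.93% (2.42 to 11.8) and 12.8%. Of Th17-like cells with Ccr8, 19 of 48 (39.6%) had Ccr4, against 29.9% of the 221 without. Regulatory-like cells with Ccr8 more often held Foxp3 (86.3 against 67.6%), Klrg1 (57.8 against 35.9%) and Batf (55.2 against 34.1%), genes of activated tissue regulatory T cells, and Tnfrsf4 (94.4 against 77.1%), and each of these directions held within every library. They were deeper, at a median of 4761 against 3032 UMIs, and the part of depth was not tested.

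Beside all genes, the receptors gave few values past 1.5-fold. In regulatory-like cells the background was 16.1% of 3931 genes, 13.7% of 5697 and 18.0% of 4847, and 0 of 1, 0 of 2 and 0 of 2 counted members lay past it. In CD4 helper cells it was 11.8% of 6120, 12.0% of 6443 and 19.2% of 6570, and 2 of 3 (Ccr4 higher, Ccl1 lower), 1 of 3 (Ccr4 higher) and 1 of 3 (Ccl1 lower) members did. Median ratios over all genes were 0.936 to 1.03 in these 6 comparisons.

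The regulatory T cell list, 20 genes all counted in regulatory-like cells, had 0, 1 and 0 genes above and 0, 1 and 2 below 1.5-fold, with medians of 1.18, 0.903 and 0.987. It too included the markers that named its class, such as Foxp3, Il2ra and Ctla4. Itgae, an integrin of tissue-resident cells, had 178 CPM in untreated and 342 with the LTβR agonist, and Il10 had 184 and, with the combination, 95.8. Of 13 other chemokine receptors, 6, 8 and 8 were counted, with 0, 1 and 1 above and 0, 2 and 0 below, and medians of 1.01, 1.01 and 0.888. Cxcr6, a receptor of tissue-resident T cells, had 84.0 CPM with the LTβR agonist against 201 in untreated.

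In CD4 helper cells the type 2 list of 8 genes had 4, 5 and 6 counted, of which 1, 3 and 6 lay above and 1, 0 and 0 below 1.5-fold, with medians of 0.886, 2.46 and 4.65. Il13, a type 2 cytokine, had 26.2, 23.5, 454 and 136 CPM, and Areg, a growth factor of type 2 and regulatory cells, had 59.3, 123, 146 and 525. Over all type-2-like cells, not only those among the CD4 helper cells, Il13 had 364, 375, 2658 and 602 CPM. It was found there in 6 of 22, 2 of 10, 16 of 56 and 35 of 91 cells, shares that did not follow the CPM. Type-2-like cells made up 11, 5, 26 and 55 of the CD4 helper cells, and the part of that make-up was not tested. Csf2, which encodes GM-CSF, had 41.8, 114, 130 and 70.3 CPM, 2.72-fold (1.92 to 3.92), 3.11-fold (2.23 to 4.43) and 1.68-fold (1.18 to 2.44) above untreated. The GM-CSF and IL-4 input list had 7, 8 and 8 genes counted there, 2, 4 and 3 above and 0, 0 and 1 below, with medians of 0.897, 1.35 and 1.04. Of 12 other CC ligands 3 were counted, and 2, 2 and 3 of them lay below 1.5-fold, Ccl3 at 662, 212, 73.1 and 38.6 CPM. Ccl3 is also a product of macrophages, and the 9 macrophage or monocyte markers had the same order in these cells, at 284, 212, 191 and 129 CPM (1, 1, 3 and 0 of them at 0). The 8 dendritic markers summed to 231, 112, 145 and 168 CPM (0, 4, 3 and 1 at 0), and the part of these cells' RNA was not tested. Ccl1 in the same cells, at 329, 65.7, 251 and 87.6 CPM, had a different order.

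Genes with the most similar pattern over 26 clusters were ranked by Pearson's r of log2(CPM + 10) among 12442 genes, as a description over clusters that share their libraries. For Ccl17 they were Dbn1 (r = 0.949), Zfp366 (0.927), Timd4 (0.908), Bcas1 (0.897) and Wdr86 (0.892). Ccl22 was nearest to Timp3 (0.988), Strip2 (0.961), 2200002D01Rik (0.960), Mab21l3 (0.956) and Arhgef40 (0.956). For Ccl1 the list was Igfbp7 (0.878), Tff1 (0.861), Il2 (0.853), Il13 (0.818) and Lgals7 (0.814). Ccr4 was followed by Sgip1 (0.966), Podnl1 (0.952), Igsf9b (0.938), Fam124b (0.924) and Neu3 (0.919), and Ccr8 by Chst2 (0.939), Sv2c (0.923), A430093F15Rik (0.919), Grb7 (0.908) and Atcay (0.907). Between members, r was 0.865 for Ccl17 and Ccl22, 0.745 for Ccr4 and Ccr8, 0.664 for Ccl1 and Ccr8 and 0.418 for Ccl1 and Ccr4.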

How the data were processed

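The authors deposited UMI counts per gene and cell made with Cell Ranger 7.1.0 from 10x 5′ libraries on mm10, per the labels, with no normalization. The study describes 2 experiments, and the sources used here do not say which gave these libraries. Cells with 300 to 5000 genes and at most 6% mitochondrial UMIs were kept. Counts were scaled to 10000 per cell and clustered in scanpy 1.11.5 (2000 variable genes without the members and 640 V(D)J genes, 30 components, 20 neighbours, Leiden resolution 1), giving 28 clusters, then 17 T-like and 10 dendritic-like sub-clusters. A cluster took the marker list with the highest mean log2 ratio, against the median cluster or, for sub-clusters, the remaining cells (20 CPM added). It stayed unnamed where that mean was under 0.5, fewer than 3 markers were each found in at least 10% of its cells, another list had more markers among its top 10 genes, 5 T cell genes averaged over 40% and 6 myeloid genes over 50% of cells, or a sub-cluster had no marker of the list among its top 10 genes (fewer than 2 for naive T cells). A cluster with none of its markers among its top 10 genes also stayed unnamed where its median UMI count was over 3 times lower than that of all kept cells. These limits were set with the data in view. Doublets were scored with Scrublet and kept (233, 74, 230 and 141 kept cells scored above 0.2 in the order of libraries used above). UMIs of a class were summed per library and divided by the class total (CPM). Ratios carry exact conditional binomial and shares Clopper-Pearson 95% intervals (scipy 1.17.1), and a count of 0 is given with a limit of 3 counts. The interval code was tested on simulated data with independent counts, as the interval assumes. That test could not show how the intervals cover UMIs clumped in few cells. Genes counted in a comparison had at least 50 UMIs over its libraries.

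The members and gene lists were chosen with earlier results of these data known. The named genes are the 5 members, the 5 genes most similar to each over clusters of at least 50 cells (genes with at least 200 UMIs), and up to 4 genes with the widest ratios from the lists of other CC ligands, other chemokine receptors, regulatory T cell genes, mature dendritic cell genes, type 2 genes, and GM-CSF and IL-4 input. The class of other dendritic-like cells and the co-detected genes were chosen after the data were seen. Alternatives were marker gates, a finer clustering, other scalings, thinning, and doublets or top cells left out. Promoter letters came from RefSeq, and protein sequences were not used here.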

Additional observations from a re-analysis of the deposited data

Results flagged for a closer look

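Ccl17 and Ccl1 differed in direction between cell classes under the same treatment, and these differences between classes were not tested, since each condition was 1 library. With the STING agonist, Ccl17 stood at 1.498 of untreated in mature-DC-like cells and at 0.4566 in other dendritic-like cells, where the library held 25 UMIs. Ccl1 stood at 0.1995 of untreated in CD4 helper cells and at 2.378 in CD8 T cells with the STING agonist, and at 0.7618 and 1.897 with the LTβR agonist. The CD4 helper value with the LTβR agonist became 1.26 when the cell with most Ccl1 was left out of each library, so that contrast rested on single cells.

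Cells outside the classes of the report also held member RNA. Among barcodes removed by the quality filter, Ccl17 had 87.24 CPM in the LTβR agonist library and 64.49 in the combination, against 17.06 in untreated and 1.08 with the STING agonist. Ccl1 had 23.45 and 12.81 CPM in those barcodes against 5.54 in untreated, and Ccr8 had 20.35 with the combination against 12.25. One cluster of 590 cells carried both T cell and myeloid genes and stayed unnamed. Its cells had a median of 12938.5 UMIs, against 3578.5 in regulatory-like cells, and the part of doublets in it was not tested. This unnamed cluster was led by Areg, Foxp3, Tnfrsf4, Itgb8 and Il2ra, all among the leading genes of regulatory-like cells too, and was not counted with them. There Ccl17 had 29.04 CPM in the LTβR agonist library and 69.44 in the combination against 5.38 in untreated. Ccr4 had 7.366 CPM with the STING agonist and 5.809 with the LTβR agonist against 0.384 in untreated, and Ccr8 had 109.0 CPM with the STING agonist, from 49 cells, against 35.4 in untreated.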

How the results depend on the processing

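No paired analysis was possible because each group was 1 library. Of 168 recomputed level ratios 123 stayed within their counting interval and, among those whose interval lay wholly on 1 side of 1, 4 crossed to the other side, all of Ccl22 in mature-DC-like cells with the LTβR agonist. Ratios whose interval included 1 (Ccl1 in T-like, Ccr4 and Ccr8 in regulatory-like, Ccl22 in other dendritic-like cells) also crossed 1 under some settings. Of 75 share ratios 71 stayed. Leaving out doublets and median-of-ratios scaling moved none. Ratios to untreated follow in the order STING agonist, LTβR agonist, combination. The causes were not tested. At resolution 2, Ccl17 was 1.915, 3.706 and 1.875 in mature-DC-like and 0.7983, 4.555 and 9.171 in other dendritic-like cells. Ccl22 there was 0.5927 (STING agonist) and 1.275 (LTβR agonist) in mature-DC-like cells and 0.5235 (LTβR agonist) in the others, and Ccl1 in T-like cells 0.8043 (combination). Marker gates gave mature-DC-like Ccl22 of 0.8448, 1.147 and 0.5889 and Ccl17 of 3.089 (combination). Gates over all barcodes gave Ccl22 of 0.8472, 1.066 and 0.527, Ccl17 of 3.173 and 2.455 (last 2 libraries) and Ccl1 of 1.218 (combination). Gates were not run for other dendritic-like cells. Mean per-cell CPM gave Ccl1 of 1.17, 1.489 and 1.474, Ccl17 in other dendritic-like cells of 0.2736, 6.052 and 10.32, and Ccl22 there of 0.6309 (STING agonist). Thinning to 1000 UMIs gave Ccl1 of 1.102, 1.561 and 1.519. It gave mature-DC-like Ccl22 of 1.15 and 0.9208 (last 2 libraries), other dendritic-like Ccl17 of 5.961 and 9.964 (last 2) and Ccl22 of 0.4236 and 0.5925 (first 2). In regulatory-like cells thinning gave Ccr8 of 1.85 and 1.432 (first 2) and Ccr4 of 1.908 (STING agonist). Thinned share ratios were 0.6392 for mature-DC-like Ccl22 (STING agonist), 2.938 and 4.057 for Ccl17 (last 2) and 0.5678 for regulatory-like Ccr4 (combination). Of the settings added after the data were seen, leaving out the top cell gave Ccl1 of 1.162 and 1.379 (first 2). Without the sub-cluster with T cell genes, other dendritic-like Ccl22 was 0.605 (LTβR agonist). Equal weights over sub-clusters gave Ccl17 of 12.64 (combination) and Ccl22 of 0.5809 and 0.6466 (last 2) there. Depth limits Ccr4 most, at 18 to 49 UMIs per library in regulatory-like cells.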

Other observations

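A few single cells carried much of a ligand outside its main class. One other dendritic-like cell of the combination library held 66 Ccl1 UMIs. In the STING agonist library 1 T-like cell of the sub-cluster led by interferon-response genes held 93 Ccl1 UMIs, the whole of that sub-cluster's count. Among B- and plasma-like cells of the LTβR agonist library, 22 of 25 Ccl17 UMIs were in 1 cell.

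An unnamed T-like sub-cluster led by Nebl and Arhgap26, with a median of 1855 UMIs per cell, had 3, 16, 10 and 5 Ccr4 UMIs in 145, 114, 80 and 50 cells of the 4 libraries, in the order used above. Its Ccr4 level was 8.96, 63.0, 70.0 and 58.0 CPM. Against untreated this was 7.03 (2.01 to 37.7), 7.82 (2.01 to 44.2) and 6.48 (1.26 to 41.7), wide because of the small counts. Ccr8 in the same cells was 122, 154, 84.0 and 105 CPM.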
